A study of Mus musculus with 8 samples.

Results

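Small MAF, BACH and NRF transcription factors and 3 of their targets were followed through the differentiation of follicular CD4 T cells. The set held 10 genes, picked by name for their place in this axis: the small MAF genes Mafg, Mafk and Maff, the repressor genes Bach1 and Bach2, the activator genes Nfe2l1 and Nfe2l2, and the targets Osgin1, Hmox1 and Nqo1. Earlier results of these data were known when they were picked, so their counts do not come from a list independent of the data. The arrays carried 29924 gene names, of which 15747 were tested, and all 10 genes were among them. Of the 10, 9 were measured well above background on all 8 arrays, whereas Nqo1 entered the test only through its TFR arrays.

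The 4 groups of CD4 T cells were sorted from draining peripheral lymph nodes (pLN) of B6.Cg-Foxp3<tm1Mal> mice, in which cells that express Foxp3 also make GFP. All animals had received keyhole limpet hemocyanin with alum under the skin, so no group came from unimmunized mice. They were 8 to 14 weeks old and of both sexes. Follicular helper cells (TFH) were GFP-PD1hiGL7+ and follicular regulatory cells (TFR) were GFP+PD1hiGL7+/-. Their non-follicular counterparts, called naïve T and Treg cells, were PD1-negative to PD1-low, GL7- and either GFP- or GFP+. Each cell type gave 1 array from day 12 (d12) and 1 from day 25 (d25) post immunization, each made from cells pooled from 8 to 15 mice. The 2 arrays of a cell type, 1 per day, were its replicates, and the fit held the day as a term. P-values thus measured the spread left between pools after a shared day difference, and not that between animals. A change between the days that differs between cell types counts as such spread.

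Small MAF proteins carry a leucine zipper and a DNA-binding region but no activating domain, and they act as partners of other bZIP proteins. Paired with NRF2, the product of Nfe2l2, or with NRF1, the product of Nfe2l1, they bind antioxidant response elements and switch on cytoprotective genes, and paired with BACH1 or BACH2 they keep many of the same genes silent. KEAP1 holds NRF2 protein low by ubiquitination, heme removes BACH1 from DNA, and BACH2 is known in T cells for keeping them in a naïve or resting state and for restraining effector programs.

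Values are relative expression strength (RU), an array intensity scaled so that the upper quartile of each array stood at 1500 RU, with everything under 20 RU set to 20. Levels of different genes come from different probes and were not set against each other. The genes behind the GFP and PD1 gates went with the sort labels: Foxp3 lay between 37266 and 49260 RU in Treg and TFR cells and between 66 and 358 RU in the other arrays, while Ctla4 and Ikzf2, also on the list of Foxp3-positive cell markers, overlapped between TFH and Treg cells. Ikzf2 lay at 10507 and 10816 RU in TFH and at 9918 and 11104 RU in Treg cells, and Ctla4 at 7083 and 8995 RU against 8109 and 10128 RU. Pdcd1 lay between 87318 and 303525 RU in follicular and between 2097 and 4625 RU in non-follicular cells. The probe for Trac was at or below 168 RU on all 8 arrays and well above background on 4 of them, while Cd3e and Cd4 were bright throughout. The 4 arrays of d12 shared a slide, as did d25 naïve with TFH cells and d25 Treg with TFR cells (3 slides in all), so the day cannot be told apart from the slide, while TFH versus naïve and TFR versus Treg were compared within slides. Because sorted pools were measured in bulk, fewer cells of a type and less RNA per cell cannot be told apart.

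Of the 10 genes, 3 rose and 4 fell in TFH compared to naïve T cells at a limma adjusted p below 0.05, beside 46.7% of all genes tested that passed in either direction in this comparison, 21% upward and 25.7% downward. In TFR compared to Treg cells 3 rose and 6 fell, beside 39.8% of all genes (18.8% up and 21% down). Hmox1 and Mafg rose and Bach2, Bach1, Mafk and Nfe2l2 fell in both, while Osgin1 rose in TFH and fell in TFR cells. The median log2 difference of the 9 genes measured on every array was -0.03 in TFH and -0.96 in TFR cells, where that of all genes tested was -0.07 and -0.08. Across the 4 cell types the limma F test called 9 of the 10 genes, all but Nfe2l1, beside 57.9% of all genes. Nqo1, counted here and among the rises in TFR cells, entered the test only through its TFR arrays.

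**Figure D1:**
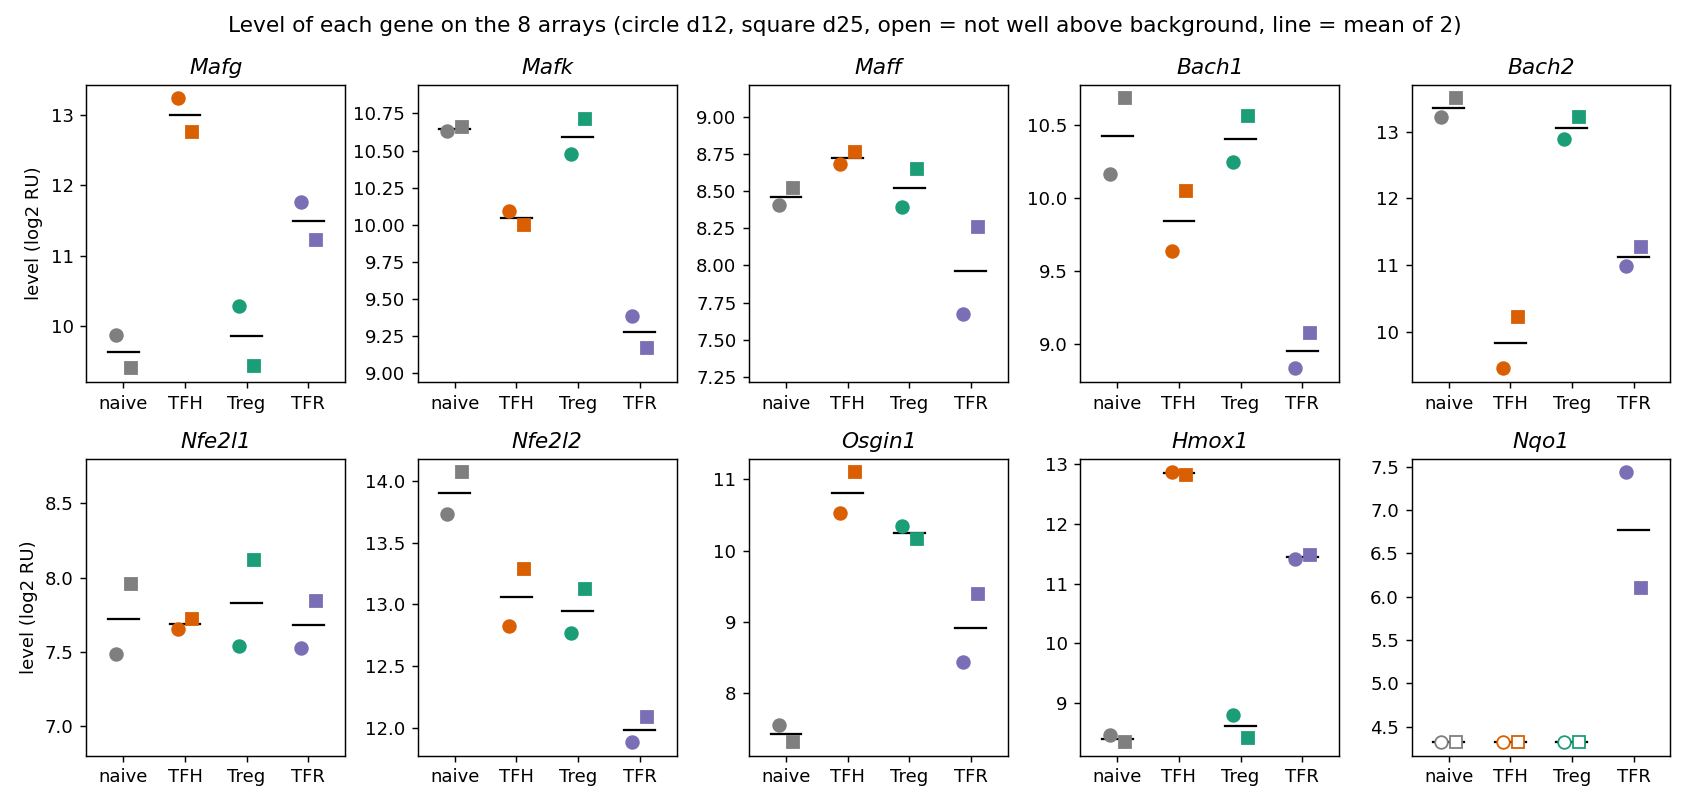
Level of each gene (log2 RU, each panel with its own axis) on the 8 arrays by cell type, with circles for d12, squares for d25, open symbols where the probe was not well above background, and a line at the mean of the 2 arrays. Mafg and Hmox1 were highest in both TFH arrays and next in both TFR arrays, Bach2 showed the reverse order, Nfe2l2 was highest in naïve and lowest in TFR cells, and Nqo1 was measured in TFR cells alone.

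Of the small MAFs, Mafg was the one that rose. Its brightest probe (mm9 chr11:120489919-120489978, minus strand) gave 941 RU in naïve, 9631 in TFH, 1244 in Treg and 3487 in TFR cells at d12. At d25 the same order of cell types gave 675, 6908, 694 and 2395 RU. Both TFH arrays lay above both TFR arrays, which lay above all 4 naïve and Treg arrays, with no overlap between those 3 tiers. Compared to naïve T cells Mafg was 10.2-fold higher in TFH cells (log2 difference 3.36 ± 0.12 SE, n = 2 arrays per cell type, limma adjusted p = 0.000171). The rise from Treg to TFR cells was 3.11-fold (1.64 ± 0.12, limma adjusted p = 0.0015), and TFR cells differed from TFH cells by -1.50 ± 0.12 on the log2 scale (limma adjusted p = 0.00262). Naïve and Treg cells differed by 0.22 with a 95% interval from -0.10 to 0.54 (limma adjusted p = 0.326), which leaves room for a small difference.

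The 3 other probes of Mafg repeated this profile. Their log2 differences from naïve to TFH cells were 2.86, 2.93 and 2.64, and from Treg to TFR cells 1.08, 1.28 and 1.30, all with limma adjusted p values of 0.00549 or less over probes. All 4 probes were well above background on all 8 arrays.

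**Figure D2:**
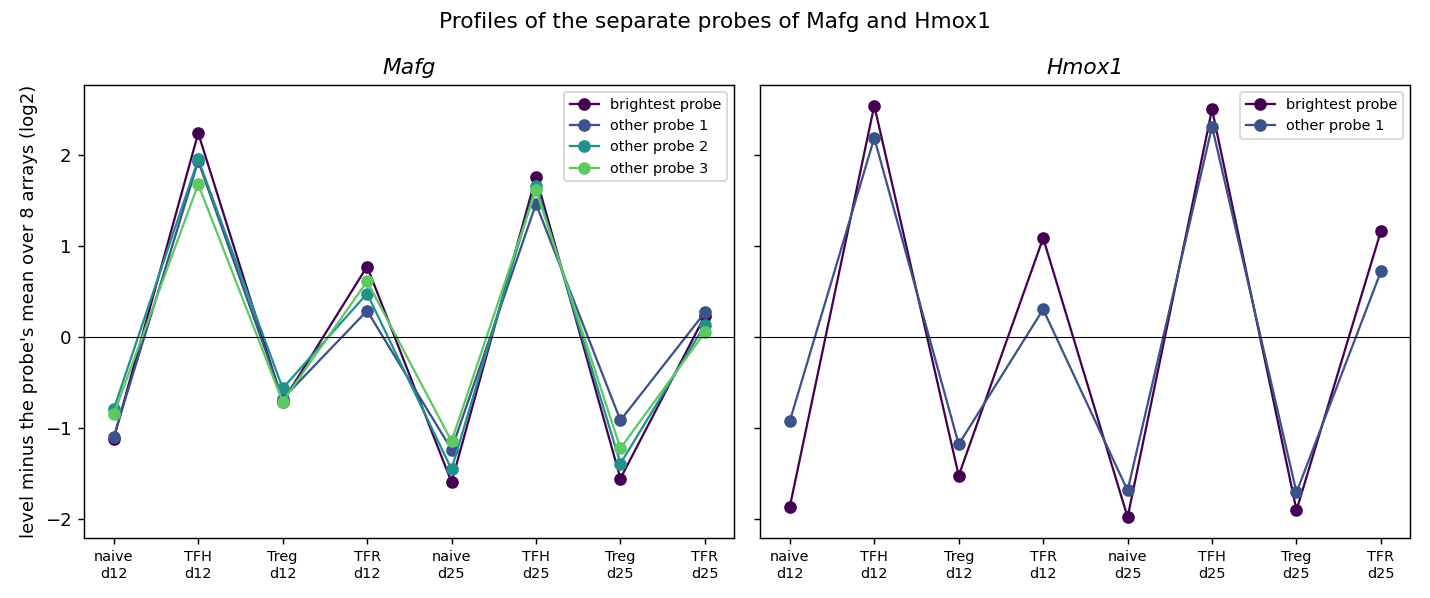
Log2 level of each probe of Mafg (4 probes) and Hmox1 (2 probes) minus that probe's own mean over the 8 arrays, by cell type and day. Within each gene the separate probes followed the same course, with TFH arrays at the top and TFR arrays between TFH and the non-follicular arrays.

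Mafk moved the opposite way. The probe (mm9 chr5:140278221-140278280, plus strand) gave 1587 RU in naïve, 1091 in TFH, 1422 in Treg and 669 in TFR cells at d12, and 1620, 1024, 1675 and 577 RU at d25. Naïve and Treg arrays overlapped and lay above both TFH arrays, and both TFR arrays were lowest. From naïve to TFH cells Mafk fell by 0.60 ± 0.13 (log2, limma adjusted p = 0.0185), and in TFR relative to Treg cells it fell by 1.31 ± 0.13 (2.48-fold, limma adjusted p = 0.00291). TFR cells differed from TFH cells by -0.77 ± 0.13 (limma adjusted p = 0.0184, and 0.0869 with the slide as a block). Without 1 of the naïve or TFH arrays the adjusted p of the naïve to TFH step lay between 0.0563 and 0.0957, and without 1 of the TFH or TFR arrays that of TFR versus TFH lay between 0.0653 and 0.112.

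Maff, a stress-inducible small MAF, changed least of the 3. It was measured at 339 RU in naïve, 411 in TFH, 337 in Treg and 204 in TFR cells at d12, and at 368, 434, 402 and 307 RU at d25 (mm9 chr15:79189442-79189501, plus strand). Both TFH arrays were the highest and both TFR arrays the lowest of the 8. The naïve to TFH difference of 0.26 did not pass (95% interval -0.13 to 0.64, limma adjusted p = 0.216). Maff fell by 0.56 ± 0.15 in TFR relative to Treg cells (limma adjusted p = 0.0393) and was -0.76 ± 0.15 relative to TFH cells (limma adjusted p = 0.0273), and each of these calls was lost under 9 of 18 alternative settings.

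The promoters of the small MAF genes are shown because all 3 hold the core of an antioxidant response element, spelled TGACNNNGC and searched on both strands, while the genes themselves moved in different directions. The letters are the 250 bases before an annotated start site in RefSeq, build GRCm38.p6, read 5′ to 3′ on the gene's strand, with the match in capitals (its reverse complement where it lies on the opposite strand). Mafg is taken from chr11:120633548-120633797 (minus strand), Mafk from chr5:139791286-139791535 (plus strand) and Maff from chr15:79346371-79346620 (plus strand, the first of its 3 listed start sites).
Mafg: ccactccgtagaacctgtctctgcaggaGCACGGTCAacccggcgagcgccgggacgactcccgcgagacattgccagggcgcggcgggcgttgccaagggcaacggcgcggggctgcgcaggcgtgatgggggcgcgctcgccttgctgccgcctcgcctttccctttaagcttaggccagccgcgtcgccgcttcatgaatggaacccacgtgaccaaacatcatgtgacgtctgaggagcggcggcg
Mafk: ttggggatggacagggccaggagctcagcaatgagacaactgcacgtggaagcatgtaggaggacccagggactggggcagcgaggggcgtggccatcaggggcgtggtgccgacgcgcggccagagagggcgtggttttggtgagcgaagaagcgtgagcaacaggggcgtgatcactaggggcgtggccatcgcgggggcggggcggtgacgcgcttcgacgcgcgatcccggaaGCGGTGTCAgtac
Maff: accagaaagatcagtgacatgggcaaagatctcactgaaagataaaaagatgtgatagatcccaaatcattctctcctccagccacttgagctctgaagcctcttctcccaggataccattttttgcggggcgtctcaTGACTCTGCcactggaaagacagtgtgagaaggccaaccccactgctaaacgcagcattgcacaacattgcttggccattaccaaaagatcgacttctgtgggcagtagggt
The match began at position -222 in Mafg, -13 in Mafk and -112 in Maff, counted from the start site. Among all annotated genes, 14% held such a core in a window of 250 bases before to 50 after a start site, and of the 9 genes of the axis with a window 4 did, the fourth being Nfe2l2. The longer MAF recognition element, a palindrome that small MAF dimers bind, was in none of the 9 and in 0.0074% of all genes. A match describes letters in this window and not a bound site.

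The repressor gene Bach2 had the largest fall of the axis in both follicular populations. Its brightest probe (mm9 chr4:32673009-32673068, plus strand) gave 9552 RU in naïve, 698 in TFH, 7570 in Treg and 2024 in TFR cells at d12, and 11559, 1192, 9569 and 2461 RU at d25. All 4 naïve and Treg arrays lay above both TFR arrays, which lay above both TFH arrays. From naïve to TFH cells Bach2 fell by 3.53 ± 0.15 (log2, 11.5-fold, limma adjusted p = 0.000215). In TFR relative to Treg cells it fell by 1.93 ± 0.15 (3.81-fold, limma adjusted p = 0.0017), so that TFR cells kept 2.45 times the TFH level (1.29 ± 0.15, limma adjusted p = 0.00683). With the mean of both Bach2 probes this last difference was 0.65 and did not pass (limma adjusted p = 0.0756). The dimmer second probe of Bach2 was well above background on 1 array only, with 33 to 92 RU in naïve and Treg cells and 20 RU, the floor, in all follicular arrays.

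B cells also express Bach2, and the d25 TFH array carried more B cell message than the d12 TFH array. The 8 B cell markers summed to 18369 RU there against 8257 RU at d12, while Pax5 was well above background on no array. Over the other cell types the sum ran from 6164 to 10418 RU. Without the d25 TFH array, Bach2 differed by -3.76 between TFH and naïve and by 1.53 between TFR and TFH cells. With all arrays these values were -3.53 and 1.29. That array differs from the d12 TFH array in day and slide too, and Bach2 was higher at d25 in every cell type. The part of B cells in the Bach2 result was not tested. Leaving out either TFR array moved the adjusted p of the TFR versus TFH difference to 0.0699 or 0.0513.

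Bach1, the heme-sensitive repressor of Hmox1, fell less. It gave 1148 RU in naïve, 798 in TFH, 1215 in Treg and 457 in TFR cells at d12 and 1641, 1057, 1513 and 540 RU at d25 (mm9 chr16:87733532-87733591, plus strand). Within each day naïve and Treg cells were highest, TFH cells lower and TFR cells lowest, and both TFR arrays lay below all others. From naïve to TFH cells Bach1 fell by 0.58 ± 0.10 (log2, 1.49-fold, limma adjusted p = 0.0096), and in TFR relative to Treg cells it fell by 1.45 ± 0.10 (2.73-fold, limma adjusted p = 0.00126). The TFH step lost its call without the d25 naïve array (limma adjusted p = 0.0611). TFR cells were -0.89 ± 0.10 relative to TFH cells (limma adjusted p = 0.00615, and 0.0551 without the d25 TFR array).

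Nfe2l2, which encodes NRF2, was brightest in naïve T cells. The probe (mm9 chr2:75513771-75513830, minus strand) gave 13566 RU in naïve, 7263 in TFH, 6985 in Treg and 3792 in TFR cells at d12, and 17174, 10016, 8954 and 4365 RU at d25. Both naïve arrays lay above all TFH and Treg arrays, whose ranges overlapped, and both TFR arrays were lowest. From naïve to TFH cells Nfe2l2 fell by 0.84 ± 0.10 (log2, 1.79-fold, limma adjusted p = 0.00279), and in TFR relative to Treg cells it fell by 0.96 ± 0.10 (1.94-fold, limma adjusted p = 0.00301). Treg cells were -0.95 ± 0.10 from naïve T cells (limma adjusted p = 0.0075), so that TFR cells stood 3.75-fold below naïve T cells (limma adjusted p = 0.000263). TFH and Treg cells differed by 0.11, with a 95% interval from -0.14 to 0.36 (limma adjusted p = 0.414). The Treg versus naïve call crosses slides at d25, and with the slide as a block its adjusted p was 0.0574. Without any 1 of the naïve or Treg arrays it lay between 0.0604 and 0.0749.

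The window before the Nfe2l2 start site (chr2:75704664-75704913 of GRCm38.p6, minus strand) is shown because NRF2 is known to act on such a core and this gene fell where Hmox1 rose. The core starts at position -240.
Nfe2l2: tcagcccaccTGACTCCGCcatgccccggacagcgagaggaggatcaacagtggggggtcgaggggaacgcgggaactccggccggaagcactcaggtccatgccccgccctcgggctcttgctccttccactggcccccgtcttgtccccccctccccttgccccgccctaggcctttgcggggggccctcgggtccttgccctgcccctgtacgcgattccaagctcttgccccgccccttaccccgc

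Nfe2l1, whose product NRF1 is anchored in the endoplasmic reticulum and drives proteasome genes, passed no comparison. All 8 arrays lay between 179 and 278 RU (mm9 chr11:96680710-96680769, minus strand), and each cell type spanned values that overlapped with the others. The limma F test gave an adjusted p of 0.763. The naïve to TFH difference of -0.03 had a 95% interval from -0.41 to 0.35, and the Treg to TFR difference of -0.15 one from -0.52 to 0.23, which bounds a change of this probe without showing that there was none.

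Among the targets, Hmox1, encoding the heme-degrading enzyme heme oxygenase-1, had the largest rise. Its brightest probe (mm9 chr8:77624207-77624266, plus strand) gave 352 RU in naïve, 7474 in TFH, 446 in Treg and 2725 in TFR cells at d12, and 325, 7263, 343 and 2874 RU at d25. Both TFH arrays were highest, both TFR arrays next, and all naïve and Treg arrays lay at or below 446 RU. Hmox1 was 21.8-fold higher in TFH than in naïve T cells (log2 4.44 ± 0.13, limma adjusted p = 0.000118) and 7.15-fold higher in TFR than in Treg cells (2.84 ± 0.13, limma adjusted p = 0.000553). TFR cells differed from TFH cells by -1.40 ± 0.13 (limma adjusted p = 0.00372). The second, dimmer probe gave 3.56 and 1.96 for the same follicular steps (limma adjusted p over probes 0.0013 and 0.00982).

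Macrophages are a rich source of Hmox1, so myeloid markers were read beside it. The 8 myeloid markers summed to between 18446 and 30839 RU with overlapping ranges in the 4 cell types, and Adgre1 and Cd14 were well above background on no array. Itgam alone gave 13020 to 28500 RU, so the sum mainly follows this gene and says little about the other markers. Among the 8, Cd68 was higher in follicular cells, at 5098 and 3767 RU in TFH, 2867 and 2334 in TFR, 551 and 564 in naïve and 368 and 394 in Treg cells. Clec7a went the same way at a lower level and was well above background on 5 of the 8 arrays. It gave 96 to 236 RU on the 4 follicular and 27 to 72 RU on the 4 non-follicular arrays. Lyz2 was higher in the follicular array of each lineage at both days, by little at d12 in TFH cells (461 against 449 RU in naïve) and most at d25 (1247 against 352 RU). Csf1r and Itgam were lower in follicular cells in the same pairs. Mpeg1 was lower too, except at d25 in TFR cells (553 against 363 RU in Treg). The part of myeloid cells in the Hmox1 result was not tested.

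Osgin1, a target linked to oxidative stress and growth inhibition, was called in opposite directions in the 2 lineages. It gave 187 RU in naïve, 1473 in TFH, 1295 in Treg and 348 in TFR cells at d12, and 159, 2197, 1146 and 670 RU at d25 (mm9 chr8:121970077-121970136, plus strand). TFH and Treg arrays were high, with both TFH arrays above both Treg arrays, TFR arrays lay below them and both naïve arrays were lowest. Osgin1 was 10.4-fold higher in TFH than in naïve T cells (log2 3.38 ± 0.33, limma adjusted p = 0.00164), and 7.07-fold higher in Treg than in naïve T cells (2.82 ± 0.33, limma adjusted p = 0.0111). In TFR relative to Treg cells it fell by 1.34 ± 0.33 (2.52-fold, limma adjusted p = 0.0313). The log2 difference was -1.90 at d12 and -0.78 at d25. Without the d12 TFR array the value was -0.89 (limma adjusted p = 0.148), without the d12 Treg array -1.03 (limma adjusted p = 0.163) and without the d25 Treg array -1.64 (limma adjusted p = 0.0711). TFR cells differed from TFH cells by -1.90 ± 0.33 (limma adjusted p = 0.019), with 0.0555 without the d12 TFH, 0.0971 without the d25 TFH and 0.103 without the d12 TFR array. The rise in Treg over naïve T cells had an adjusted p of 0.0856 without the d12 Treg, 0.064 without the d25 naïve and 0.0559 without the d25 Treg array. With the slide as a block none of these 3 differences passed (limma adjusted p = 0.0608 for TFR versus Treg, 0.0821 for TFR versus TFH and 0.0777 for Treg versus naïve).

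Nqo1, encoding NAD(P)H quinone dehydrogenase 1, was well above background in TFR cells only, at 173 RU at d12 and 69 RU at d25, and stood at the floor of 20 RU on the 6 other arrays (mm9 chr8:109912440-109912499, minus strand). Against the dimmest signal measurable on those arrays it was at least 2.05-fold higher in TFR than in Treg cells (limma adjusted p = 0.00867), at least 3.17-fold higher than in TFH (limma adjusted p = 0.0138) and at least 1.87-fold higher than in naïve T cells (limma adjusted p = 0.00589). With normexp background correction its log2 difference from Treg cells was 0.75 in place of 2.45. The probe entered the test through the group in which it is high, and the 6 other arrays all hold the same floor value. The adjusted p values belong to differences from that floor and not to the bounds. Without the d12 Treg array the TFR versus Treg adjusted p was 0.0639, and without the d12 or the d25 TFH array that of TFR versus TFH was 0.0645 or 0.0561.

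**Figure D3:**
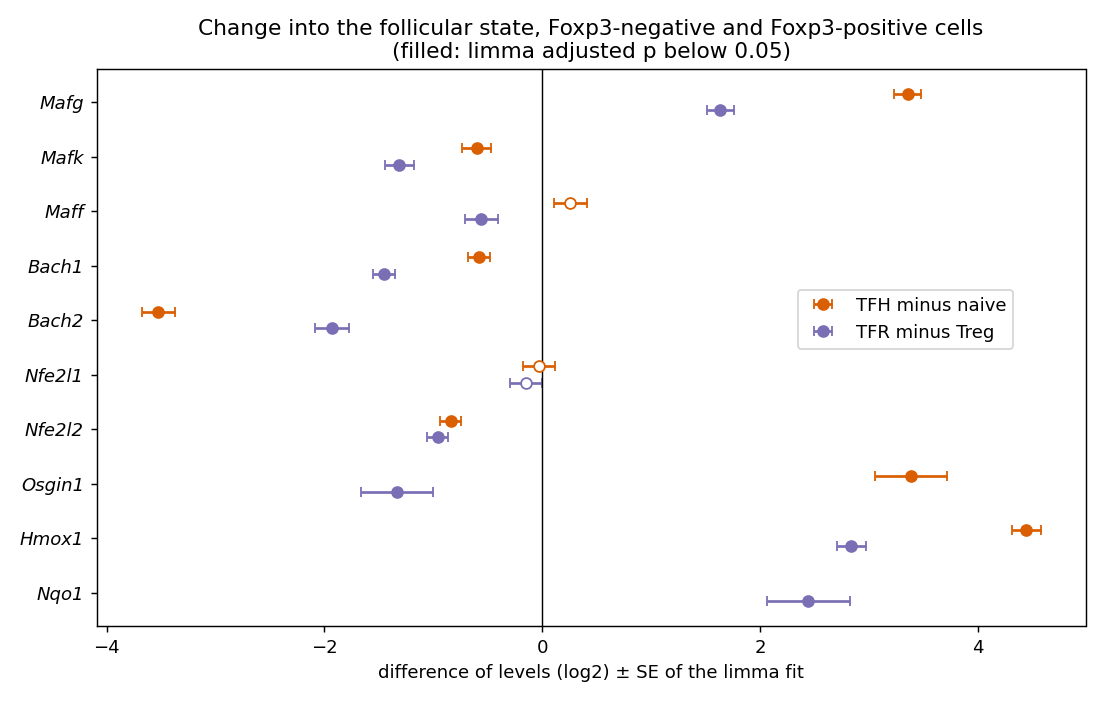
Log2 difference of levels with its SE from the limma fit for TFH minus naïve (orange) and TFR minus Treg cells (purple), with filled points where the adjusted p was below 0.05; Nqo1 has no TFH point because it was below background in both cell types, and its TFR point rests on floor values in Treg cells. Mafg, Hmox1 and Osgin1 lie over 3 log2 units right of zero in TFH cells. In TFR cells Osgin1 lies left of zero, and so does Maff, whose own TFH point did not pass. Bach2, Bach1, Mafk and Nfe2l2 lie left of zero in both comparisons with filled points.

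The size of both follicular changes was then compared by subtracting the naïve-to-TFH change from the Treg-to-TFR change. This difference passed for 5 of the 10 genes, 1 higher and 4 lower, beside 8.52% of all genes tested (4.05% higher and 4.47% lower). It was -1.72 ± 0.17 for Mafg (limma adjusted p = 0.0105) and -1.61 ± 0.19 for Hmox1 (limma adjusted p = 0.0138), both of which rose less in TFR cells. For Bach2, which fell less in TFR cells, it was 1.59 ± 0.22 (limma adjusted p = 0.0198, but 0.89 and 0.13 with the mean of both probes), and for Bach1, which fell more, -0.87 ± 0.14 (limma adjusted p = 0.0312). Osgin1 gave -4.72 ± 0.47 (limma adjusted p = 0.0098). For Nfe2l2 the difference was -0.12 with a 95% interval from -0.48 to 0.24 (limma adjusted p = 0.649). Leaving out 1 array took the adjusted p of Bach1 to between 0.0671 and 0.141, and took Mafg, Bach2, Hmox1 and Osgin1 above 0.05 for some arrays, at most to 0.0727, 0.109, 0.0774 and 0.055, with no change of sign. With no filter on dim probes, none of the 10 passed with limma, while 8 had an unadjusted p below 0.05.

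Between TFR and TFH cells 2 genes were higher (Bach2 and Nqo1, the latter measured in TFR cells alone) and 7 lower. Nfe2l1 was not called, and 22.2% of all genes were (11.7% and 10.5%). Between Treg and naïve T cells Osgin1 was higher and Nfe2l2 lower, beside 9.89% of all genes (5.91% and 3.99%). From naïve T to TFR cells 4 genes, Nqo1 among them, were higher and 5 lower, beside 53.2% of all genes (23.4% and 29.8%). Between TFH and Treg cells 2 were higher in TFH and 3 lower, beside 39.9% (18.8% and 21.1%). The day made no call among the 10 genes with limma, beside 0.0699% of all genes (0.0191% higher and 0.0508% lower at d25), although 5 had an unadjusted p below 0.05. The share of all genes at that unadjusted threshold is not given here, so these 5 are not read as particular to the axis. Mafg was lower at d25 in every cell type, by -0.48 in naïve, -0.48 in TFH, -0.84 in Treg and -0.54 in TFR cells (mean -0.59, limma adjusted p = 0.0669).

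Profiles over the 8 arrays, each centred on its own mean, were compared by their root mean square (RMS) difference on the log2 scale as a description. Within the axis the closest pair was Mafk with Bach1 (0.22), and Mafg lay nearest to Hmox1 (0.62). Among 13283 other genes measured on all arrays, the one nearest to Mafg was the stress-response gene Gadd45b (0.32), which gave 2305 RU in naïve, 28214 in TFH, 4536 in Treg and 10894 in TFR cells at d12. Nearest to Bach2 was Tsc22d3 (0.24), the glucocorticoid-induced leucine zipper gene, nearest to Bach1 was Ablim1 (0.08), and nearest to Hmox1 was Arc (0.28). The nearest gene to Osgin1, Rasgrp4, was farther off (0.47). These distances were not scaled to the spread of each gene, so genes that vary little tend to lie closer. The SD over the 8 arrays (log2) was 0.56 for Mafk, 0.63 for Bach1, 1.34 for Osgin1, 1.39 for Mafg, 1.46 for Bach2 and 1.89 for Hmox1.

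Lists of 59 further genes of the pathway, 52 of which were tested, placed the axis in its surroundings. In TFH compared to naïve T cells 21 of the 52 rose and 2 fell, and in TFR compared to Treg cells 16 rose and 2 fell, while 29 and 34 passed in neither direction. The share called, 44.2% in TFH and 34.6% in TFR cells, lay below the 46.7% and 39.8% of all genes tested. The median log2 difference was 0.17 and 0.15. The TFR count dropped from 18 to 8 genes without the d12 Treg, the d12 TFR or the d25 TFR array and to 9 without the d25 Treg array. Among the TFR differences named below, those of Vcp, Sqstm1, Blvra, Alas1 and Rora lost their call without each of those 4 arrays, Txn1 and Gclc without 3 of them (all but the d25 Treg array), and Prdm1 without the d25 Treg array. In TFH cells the calls of Vcp and Blvra were lost without either naïve array (Vcp also without the d25 TFH or either Treg array), and those of Tfrc, Blvrb, Ugdh and Alas1 without the d12 naïve array (Blvrb also without the d12 TFH array).

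Among regulators of NRF2 and NRF1 protein, 4 of 11 rose in TFH cells and none fell, and in TFR cells 1 rose and 1 fell, which is 36.4% and 18.2% called, below the shares of all genes. Syvn1, which encodes the ubiquitin ligase HRD1, rose by 0.70 ± 0.09 in TFH cells (limma adjusted p = 0.00426). Vcp, an ATPase that extracts proteins from membranes, rose by 0.48 ± 0.11 in TFH and by 0.41 ± 0.11 in TFR cells (limma adjusted p = 0.025 and 0.0447). Sqstm1, encoding the KEAP1-binding autophagy receptor p62, fell by 0.55 ± 0.11 in TFR cells (limma adjusted p = 0.0172). With the mean of all its probes Sqstm1 was lower by more, at -1.10 in TFR (limma adjusted p = 0.00539), and at -0.51 it was then called in TFH cells too (limma adjusted p = 0.0401), where its brightest probe gave -0.10. Keap1 itself, named outside the rule after its values were seen, ran from 4042 to 8170 RU and differed by -0.42 in TFH and -0.44 in TFR cells, neither of which passed (limma adjusted p = 0.0714 and 0.0703).

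Of the other CNC and MAF factors, 3 of 4 tested genes rose in both follicular populations. That is 75% called in each, beside 46.7% of all genes in TFH and 39.8% in TFR cells. The large MAF gene Maf, a driver of Il21 and Il4, gave, for d12 and d25 in turn, 1379 and 1329 RU in naïve, 37438 and 61046 in TFH, 5566 and 5553 in Treg, and 18286 and 30114 in TFR cells. Its log2 rise was 5.14 ± 0.25 in TFH and 2.08 ± 0.25 in TFR cells (limma adjusted p = 0.000268 and 0.00449). Nfe2, encoding the p45 partner of small MAF proteins known from megakaryocytes and red cell precursors, entered the test only through its follicular arrays, since it was at the floor of 20 RU on all naïve and Treg arrays, at 532 and 535 RU in TFH and at 246 and 369 RU in TFR cells. That made it at least 9.14-fold higher in TFH (limma adjusted p = 0.000174) and at least 5.67-fold higher in TFR cells (limma adjusted p = 0.000532). The erythroid marker Alas2 was well above background on no array, and the globin probes Hba-a1 and Hbb-b1 were not higher in follicular than in non-follicular cells of the same lineage at either day.

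Among 13 tested glutathione and thioredoxin targets of NRF2, 3 rose and 1 fell in TFH cells, and 4 rose and 1 fell in TFR cells, or 30.8% and 38.5% called, again below the shares of all genes. Srxn1, encoding sulfiredoxin that repairs overoxidized peroxiredoxins, was not well above background in naïve T cells (61 and 20 RU at d12 and d25). It gave 5243 and 3303 RU in TFH, 81 and 133 in Treg, and 2613 and 2147 RU in TFR cells, so both follicular populations lay far above both others. It was at least 71.3-fold higher in TFH than in naïve T cells (limma adjusted p = 0.000867) and higher by 4.51 ± 0.54 (log2) in TFR than in Treg cells (limma adjusted p = 0.00443). Txn1, encoding thioredoxin, rose by 1.20 ± 0.14 in TFH and 0.90 ± 0.14 in TFR cells (limma adjusted p = 0.00276 and 0.00879). The glutathione synthesis genes parted in TFR cells, where Gss rose by 0.98 ± 0.12 (limma adjusted p = 0.00481) and Gclc, the catalytic subunit of the rate-limiting enzyme, fell by 0.88 ± 0.15 (limma adjusted p = 0.0105). Gsta4, outside the rule and named after its values were seen, went with Foxp3 instead, at 1408 to 1812 RU in Treg and TFR cells and 56 to 91 RU in the other arrays.

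The heme and iron genes rose in 4 and fell in 1 of 9 tested cases in TFH cells, and rose in 3 in TFR cells. That is 55.6% called in TFH and 33.3% in TFR cells, beside 46.7% and 39.8% of all genes tested. Tfrc, the transferrin receptor, rose by 1.43 ± 0.26 in TFH cells (limma adjusted p = 0.0102), and by 0.46 with the mean of all its probes. The biliverdin reductases, which act after heme oxygenase, went apart in TFH cells, with Blvra up by 0.47 ± 0.10 (limma adjusted p = 0.0156) and Blvrb differing by -0.68 ± 0.12 (limma adjusted p = 0.0104). In TFR cells Blvra rose by 0.60 ± 0.10 (limma adjusted p = 0.00972). Alas1, which opens heme synthesis, rose by 0.53 ± 0.08 in TFH cells (limma adjusted p = 0.00735), and its TFR difference of 0.31 turned to -0.03 with the mean of all its probes, which also ended the TFH call (0.05, limma adjusted p = 0.644).

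Of 5 other NRF2 targets, 2 rose in TFH cells, the detoxifying hydrolase gene Ephx1 by 1.41 ± 0.20 (limma adjusted p = 0.00492) and Ugdh by 0.55 ± 0.10 (limma adjusted p = 0.00974), and none passed in TFR cells by limma, where 2 had an unadjusted p below 0.05. The shares called were 40% in TFH and 0% in TFR cells, beside 46.7% and 39.8% of all genes tested. None of the 4 tested NADPH-making enzymes passed in either follicular comparison by limma, and 0 had an unadjusted p below 0.05. Their median log2 difference was -0.01 in TFH and 0.03 in TFR cells.

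Effector regulators that BACH2 is known to restrain formed the last list. In TFH cells 6 of 7 rose and none fell, and in TFR cells again 6 of 7 rose, with Maf counted here too. That is 85.7% called in each, beside 46.7% and 39.8% of all genes tested. This list too was chosen with earlier results of these data known. Nfil3 rose from 316 and 340 RU in naïve to 5376 and 7552 RU in TFH cells (log2 4.28 ± 0.27, limma adjusted p = 0.0005), while Treg cells had 958 and 785 RU and TFR cells 5675 and 9775 RU (8.59-fold, limma adjusted p = 0.00211). Batf, a bZIP factor required for TFH cells, rose by 2.12 ± 0.11 in TFH and 2.11 ± 0.11 in TFR cells (limma adjusted p = 0.000296 and 0.000658). Rora rose by 2.65 ± 0.24 and 1.28 ± 0.24 (limma adjusted p = 0.0014 and 0.0155), and by 1.33 and 0.64 with the mean of all its probes. Prdm1, encoding BLIMP1 and named outside the rule after its values were seen, rose in TFR cells by 1.38 ± 0.22 (limma adjusted p = 0.00924) but differed by -0.70 ± 0.22 in TFH cells without passing (limma adjusted p = 0.0507), and the difference between both changes passed at 2.08 ± 0.31 (limma adjusted p = 0.0243).

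**Figure D4:**
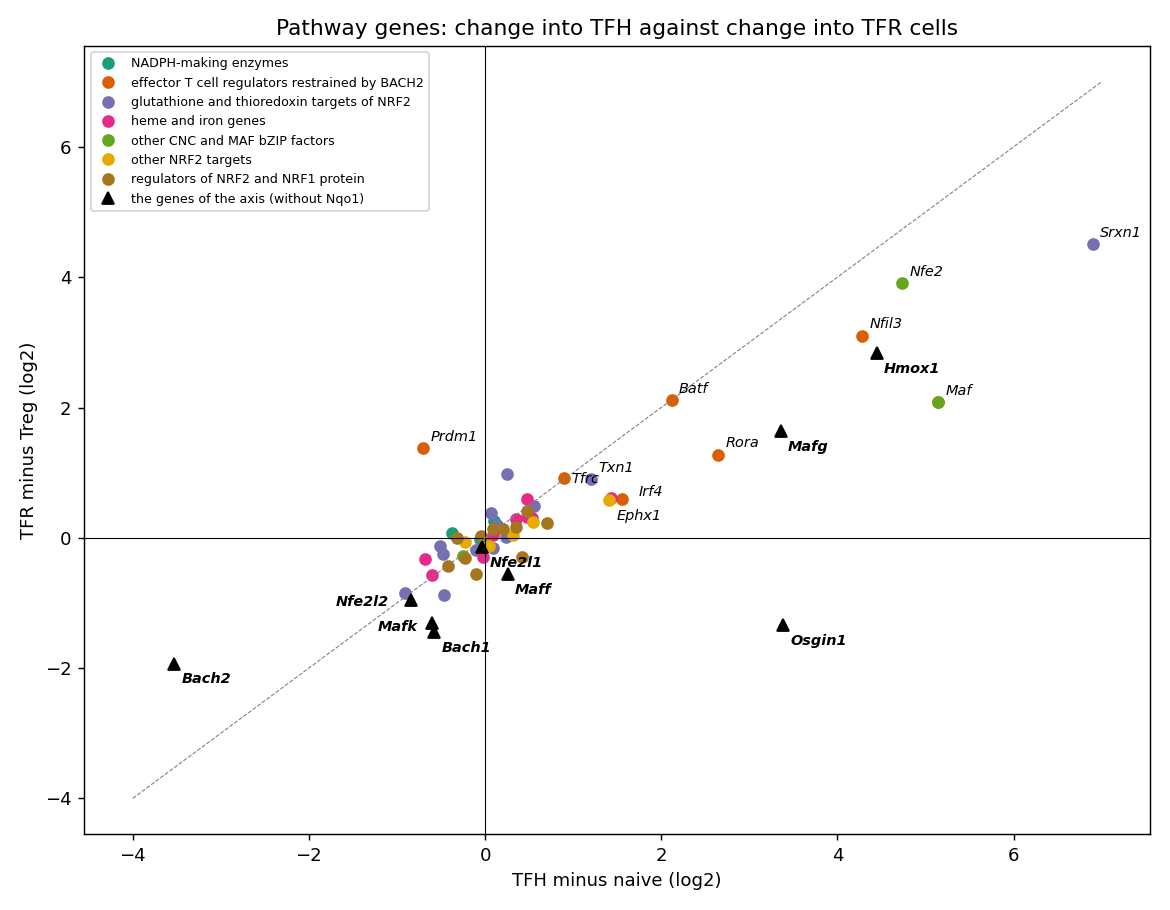
Log2 difference of TFR minus Treg cells (y axis) against that of TFH minus naïve (x axis) for the tested pathway genes by list, 1 not shown, and for 9 genes of the axis (black triangles), with a dashed line of equal change; both axes rest on separate arrays. Srxn1, Maf, Hmox1 and Mafg lie to the right of the line, Bach2 lies above it, and Osgin1 lies alone at lower right.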

How the data were processed

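RNA of sorted pLN CD4 T cells was hybridized to 8 one-color Agilent arrays from 25 ng of total RNA each. The authors extracted spot intensities with Agilent Feature Extraction 10.7.3.1 (4 spots per probe), discarded outlying spots (manual or outlier flags, 1.42 interquartile ranges, pixel CV above 0.5), averaged, quantile normalized, scaled to a 75th percentile of 1500 and raised lower values to 20. Starting from the deposited processed-signal intensities, the same procedure was rerun here and retained 86.5 to 89.2% of 157716 spots per array with values that correlated at 0.999 with the deposited normalized intensities. Between 46.3 and 50.4% of 39429 probes were well above background (more than 50% of their spots). The number of arrays limits the precision.

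Each gene was read from its brightest probe, with positions in mm9. A gene was tested if, for 1 or more cell types, neither array had it at background. Log2 levels were fitted in limma 3.58.1 (R 4.3.3) with cell type and day as terms (3 residual degrees of freedom), adjusted by Benjamini-Hochberg over 15747 genes, and called at an adjusted p below 0.05. The fit was tested on simulated data. Day numbers pair the arrays, since d25 minus d12 differences correlated at 0.299 to 0.524 between all pairs of cell types, so the day was kept as a term. The methods' one-way ANOVA was not run, because it needs replicates within each cell type and day, and other tissues were not analysed here. Where a probe was not well above background in 1 cell type, a lower bound of the fold is given, against the dimmest signal well above background on each array. The adjusted p beside such a bound belongs to the fitted difference of levels and not to the bound.

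The genes and the pathway lists were chosen with earlier results of these data known. Of each list, at most the 4 genes with the largest difference among those called in TFH versus naïve or TFR versus Treg cells were named, and a few genes that were counted in the lists are not reported here by name. Likeness was searched among genes well above background on all arrays. Promoter letters came from RefSeq GRCm38.p6, which held 9 of the 10 genes, with Hmox1 unmatched. Alternatives numbered 18: 10 other settings of scaling, background correction, spot exclusion, filter, probe choice, day, slide and spread, and 8 that left out 1 array each.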

Additional observations from a re-analysis of the deposited data

Results flagged for a closer look

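The follicular change differed between Foxp3-positive and Foxp3-negative cells for 5 of the 10 genes by the limma test of the difference itself (Treg-to-TFR change minus naïve-to-TFH change, log2), beside 8.52% of all genes tested. The difference was -4.72 for Osgin1, -1.72 for Mafg, -1.61 for Hmox1, 1.59 for Bach2 and -0.87 for Bach1. Of the 18 alternatives, 2 lost the call for Osgin1, 5 for Mafg, 6 for Hmox1, 9 for Bach2 and 11 for Bach1. The second probe of Hmox1 gave -1.59 without passing (limma adjusted p over probes 0.112), whereas the 3 other probes of Mafg passed at -1.79, -1.65 and -1.34.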

How the results depend on the processing

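Of the values called here, 1130 kept direction and call under an alternative, 174 kept direction and lost the call, and 1 reversed: Alas1 in TFR versus Treg cells, -0.030 with the mean of all probes. With no filter on dim probes the count of axis genes called was 5 in TFR versus TFH, 1 in Treg versus naïve and 0 in the difference of both follicular changes (8 at an unadjusted p below 0.05 by limma). With no day term (no replicate block) it was 1 in Treg versus naïve and 2 in that difference, and with the slide as a block 0 in Treg versus naïve (2 unadjusted by limma), 7 in TFR versus TFH and 8 in TFR versus Treg. The day called 2 with normexp, 3 among genes well above background on all 8 arrays and 2 with trend and robust, where the fit as reported called 0 (5 unadjusted by limma). The fits with the slide as a block or no day term give no day value, and Nqo1, Nfe2, Srxn1 and Gsta4 have none among genes measured on all arrays. Leaving out 1 array gave 5 to 7 calls in TFH versus naïve, 6 to 9 in TFR versus Treg, 5 to 8 in TFR versus TFH, 0 to 2 in Treg versus naïve, 1 to 4 in the difference, 0 to 0 for the day and 8 to 9 by the F test. The lone remaining array of a cell type is then assumed to vary like the others. The cause of these losses was not tested.

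Counts over all genes moved as well: with no filter from 6261 to 3865 in TFR versus Treg, from 3493 to 1645 in TFR versus TFH, from 1558 to 687 in Treg versus naïve, and from 1341 to 421 in the difference, with 1.55 times fewer by the F test; with the slide as a block to 1368, 531 and 703 in the same TFR versus TFH, Treg versus naïve and difference; with no day term to 2215, 1004 and 820. The day count of 11 was 897 with normexp, 856 on all-array genes, 1270 with trend and robust, 28 with 75th percentile scaling, 6 with no spot excluded, and 0 with no filter, with the mean of all probes or with any 1 array left out. Leaving out 1 array gave 4323 to 6511 in TFH versus naïve, 2524 to 6758 in TFR versus Treg, 947 to 2939 in TFR versus TFH, 423 to 1885 in Treg versus naïve, 303 to 1111 in the difference and 5652 to 8792 by the F test. That scaling moved the all-gene median to -0.13 in TFH versus naïve and -0.17 in TFR versus naïve.

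Reversals of uncalled values were small. Nfe2l1 became 0.071 in TFH versus naïve with 75th percentile scaling and ran from -0.23 to 0.16 with 1 array left out, from -0.29 to 0.0017 in TFR versus Treg, from -0.20 to 0.19 in TFR versus TFH (0.0078 with no spot excluded), from -0.039 to 0.26 in Treg versus naïve and from -0.31 to 0.081 in the difference. In Treg versus naïve, Maff became -0.035 with no spot excluded and -0.10 with the slide block and ran from -0.036 to 0.15, Bach1 became 0.073 with the slide block and ran from -0.11 to 0.080, and Mafk ran from -0.22 to 0.11. Mafk by day became 0.0017 with 75th percentile scaling and ran from -0.092 to 0.058. Sqstm1, called at -0.51 with the mean of all probes, ran from -0.22 to 0.024 with 1 array left out and Gsta4 from -0.10 to 0.27 in TFH versus naïve, and Gsta4 from -0.45 to 0.12 in TFR versus Treg.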
